A study of Mus musculus with 16 samples.

Results

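The 10 genes described here encode secreted or released proteins of innate defence: the β-defensins Defb1, Defb3 and Defb6, the S100 alarmins S100a8 and S100a9, the iron-siderophore binder Lcn2, the protease inhibitor Slpi, and the ribonucleases Ang, Rnase2b and Rnase4. They are 10 of the 18194 genes measured, and 10 of the 14286 tested. They were chosen by name, because Defb3 was high 10 weeks after induction of SmoM2 and Ang was high when β-catenin was lost. Those comparisons are therefore given as values with no test. All 13 probe sets assigned to the 10 symbols alone were read, and 0 probe sets named one of these genes together with another gene.

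SmoM2 is a constitutively active form of Smoothened, the hedgehog signal transducer, and its expression in skin is used as a model of basal cell carcinoma. Basal cells of the tail interfollicular epidermis (IFE) were sorted from mice of the genotype K14CREER/Rosa-SmoM2-YFP. Tamoxifen there activates a Cre driven by the keratin 14 promoter, which turns on SmoM2 and YFP. Untreated mice gave 3 control arrays. SmoM2-positive IFE cells gave 1 array at 3 days after tamoxifen, 3 arrays at 1 week, 3 arrays at 4 weeks and 2 arrays at 10 weeks. SmoM2-positive IFE cells were also taken at 4 weeks from K14CREER/Rosa-SmoM2-YFP animals that in addition carried b-cat flox/flox alleles and so lose β-catenin in the same cells (n = 2). Cells of the bulge and outer root sheath came from K19CREERT2/Rosa-SmoM2-YFP mice, untreated (n = 1) and 4 weeks after tamoxifen (n = 1). All mice had a mixed strain background, and neither β-catenin loss nor tamoxifen was given without SmoM2 in any group. The labels give no age or sex and do not say whether replicates were separate mice. Each p-value therefore covers only the spread among the arrays at hand, which may be technical in part. In such bulk samples fewer cells of a type and less RNA per cell cannot be told apart.

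β-defensins are small cationic peptides that epithelia secrete and that disrupt microbial membranes. S100a8 and S100a9 form calprotectin, which binds zinc, manganese and calcium. It is abundant in neutrophils and is also made by keratinocytes of wounded, inflamed or hyperproliferative epidermis. Secreted ribonucleases of the RNase A family degrade RNA outside cells, several of them kill microbes, and Ang can also promote blood vessel growth. In skin many of these genes are induced through interleukin-1, interleukin-17 and interleukin-22 signalling and the transcription factors NF-κB, STAT3 and C/EBP.

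Values are the deposited log2 array signals, with 1 unit equal to a 2-fold difference, and they are compared between samples and never between genes, because probe sets differ in affinity. The 40th percentile of an array lay between 4.88 and 5.01, and a value below it is close to the level of probes with no clear signal. Krt14, the keratin of basal epidermal cells, was high in every array, between 12.83 and 14.21. Krt10, a keratin of the layer above, was also high (12.27 to 14.07), and Cd34, a bulge marker, was above the 40th percentile in 4 of 16 arrays. Gli1, a direct hedgehog target, read 5.30 to 5.73 over the controls, and the 4-week arrays read 10.55, 10.83 and 9.95. In the β-catenin loss arrays it read 7.22 and 9.56, both below the 4-week arrays with SmoM2 alone and replicate 1 close to the 3-day array (7.28). Ptch1, another hedgehog target, read 10.71 and 12.50 with loss and 12.64 to 13.60 at 4 weeks. The part of this lower hedgehog target signal in the differences between β-catenin loss and SmoM2 alone was not tested. Gli1 was 9.89 in the untreated bulge and 9.96 in the SmoM2 bulge, and it does not separate the bulge pair. The source label of the untreated bulge sample names SmoM2-positive cells, and the array was used as the untreated sample that its title gives. Mean Y-linked signal differed between samples. It was 3.41 to 8.18 within the controls, 7.55 at 3 days, 3.34 to 8.26 at 1 week and 6.02 to 8.41 at 4 weeks. It was 8.10 to 8.15 at 10 weeks, 3.39 to 6.91 with β-catenin loss, and 6.35 in the untreated and 3.48 in the SmoM2 bulge. In the control, 1-week and loss groups 0 to 3 of 3 Y-linked genes were above the 40th percentile. Arrays within each of those groups were therefore not all from the same mice.

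Several of the genes are neighbours. Their start regions are printed because shared position and shared sequence bear on which of them could move together. Ang and Rnase4 have the same annotated first start on chromosome 14, with 0 protein-coding genes between them. S100a8 and S100a9 are adjacent on chromosome 3, and Defb3 and Defb6 on chromosome 8 have 2 protein-coding genes between them. RefSeq promoter windows, the 250 bases before an annotated start in GRCm38.p6, were found for 9 of the 10 genes and gave 9 distinct sequences. The 5 windows of the neighbouring pairs are printed 5′ to 3′ on the strand of the gene, and capitals mark a match to TATANA in the last 60 bases before the start. The windows are chr8:19293111-19293360 (plus strand) for Defb3, chr8:19225228-19225477 (plus) for Defb6, chr3:90668821-90669070 (plus) for S100a8, chr3:90695722-90695971 (minus) for S100a9 and chr14:51090827-51091076 (plus) for Ang and Rnase4.
Defb3: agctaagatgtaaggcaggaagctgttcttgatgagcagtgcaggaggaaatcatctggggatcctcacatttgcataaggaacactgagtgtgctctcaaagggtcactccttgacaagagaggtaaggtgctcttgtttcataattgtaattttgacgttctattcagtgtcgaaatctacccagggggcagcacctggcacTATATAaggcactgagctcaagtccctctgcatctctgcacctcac
Defb6: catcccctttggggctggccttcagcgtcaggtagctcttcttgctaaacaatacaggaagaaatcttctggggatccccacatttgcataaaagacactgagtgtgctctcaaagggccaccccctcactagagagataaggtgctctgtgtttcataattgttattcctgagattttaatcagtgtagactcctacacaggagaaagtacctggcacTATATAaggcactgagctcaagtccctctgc
S100a8: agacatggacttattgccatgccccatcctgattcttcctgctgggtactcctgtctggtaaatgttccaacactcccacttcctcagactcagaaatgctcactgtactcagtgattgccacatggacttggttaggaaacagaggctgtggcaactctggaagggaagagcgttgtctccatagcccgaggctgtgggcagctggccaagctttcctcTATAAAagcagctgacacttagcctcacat
S100a9: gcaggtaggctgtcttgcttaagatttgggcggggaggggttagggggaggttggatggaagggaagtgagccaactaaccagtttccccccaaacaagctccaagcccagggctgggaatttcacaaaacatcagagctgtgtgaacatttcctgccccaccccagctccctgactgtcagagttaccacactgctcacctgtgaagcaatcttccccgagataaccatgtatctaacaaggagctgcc
Ang and Rnase4: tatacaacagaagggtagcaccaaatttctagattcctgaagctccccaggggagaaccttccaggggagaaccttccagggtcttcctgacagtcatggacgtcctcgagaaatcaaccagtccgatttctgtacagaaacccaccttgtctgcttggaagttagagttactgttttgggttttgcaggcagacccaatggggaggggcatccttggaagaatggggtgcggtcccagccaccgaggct

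The Defb3 and Defb6 windows were identical at 192 of 265 aligned columns (72.5%). In this alignment the longest run of identical columns was 39 bases, at positions -55 to -17 of Defb3 and -40 to -2 of Defb6. The run holds the capitals TATATA at positions -46 and -31, and the base after it is c in both windows. S100a8 and S100a9, whose signals ran closely together across arrays, had only 46.7% identity, a value like that of unrelated pairs in the set (Lcn2 against Slpi 46.3%). The S100a8 window holds TATAAA at position -30. TATANA, a motif chosen after the sequences were seen, occurs on the coding strand in the last 60 bases of 4.91% of the 32851 windows in the table.

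The C/EBP-type sequence TTGCNNAA, searched on both strands, was found in 7 of the 9 distinct windows and in 9.56% of all windows. The 7 were those of Defb3, Defb6, S100a9, Lcn2, Slpi, Rnase2b and the other annotated start of Rnase4. The TCF/LEF core CTTTGA, searched on both strands, was in the Defb3 and Defb6 windows as its complement TCAAAG, and in 13.8% of all windows. The GLI site GACCACCCA (0.225% of all windows) and the AP-1 site TGANTCA (6.75%) were in 0 of the 9. These are matches of letters within 250 bases and not measured binding.

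In each tested comparison 8 or 9 of the 10 genes were eligible. Of these 0 passed an adjusted p of 0.05 in limma, with Benjamini-Hochberg adjustment over all 14286 genes. An adjusted p was read for Defb3 at 4 weeks against 1 week alone, and for Ang in no comparison, because of the arrays on which they were chosen. At 4 weeks against control 8 of the genes were eligible, because Defb3 and Ang had been chosen on arrays in that comparison, and 3 of the 8 (Defb1, Rnase2b and Rnase4) had an unadjusted p below 0.05. In that comparison 3.24% of all genes passed, 2.44% higher and 0.798% lower. This main fit left out the pairing of arrays by replicate number. With the title number as a block in limma, Defb1 (adjusted p = 0.0312) and Rnase4 (adjusted p = 0.041) passed there. At 3 days, at 1 week, at 4 weeks against 1 week and at 10 weeks against 4 weeks 0% of all genes passed, so these comparisons could not single out any gene. The genes below an unadjusted p of 0.05 there were 0 at 3 days, 0 at 1 week, 1 at 4 weeks against 1 week (Lcn2) and 1 at 10 weeks against 4 weeks (Rnase4). The fit lent the single 3-day array the spread of the remaining groups.

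Where groups did not overlap, the direction depended on the comparison. At 4 weeks against control 2 of the 8 eligible genes (Defb1 and Rnase4) were lower without overlap and 0 were higher, and 8.12% of all genes were lower. At 10 weeks against 4 weeks 5 of the 8 eligible genes (Defb1, Defb6, S100a8, S100a9 and Rnase4) were higher in both 10-week arrays than in all 4-week arrays and 0 were lower. Over all genes 26.6% were free of overlap there, in either direction. At 10 weeks against control, a comparison used to choose the set and from which nothing is read, 6 of the 10 (Defb3 included) were higher and 1 lower without overlap, against 16.8% and 20.5% of all genes. With β-catenin loss, also used for the choice and given as a description alone, 7 (among them Ang, and Defb3 at values below the 40th percentile) were higher and 1 lower than control without overlap (33.6% of all genes in either direction), and 4 were higher and 1 lower than SmoM2 alone at 4 weeks (11.1% and 17.6%). The plot of all 10 genes by array shows the levels behind these counts.

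**Figure D1:**
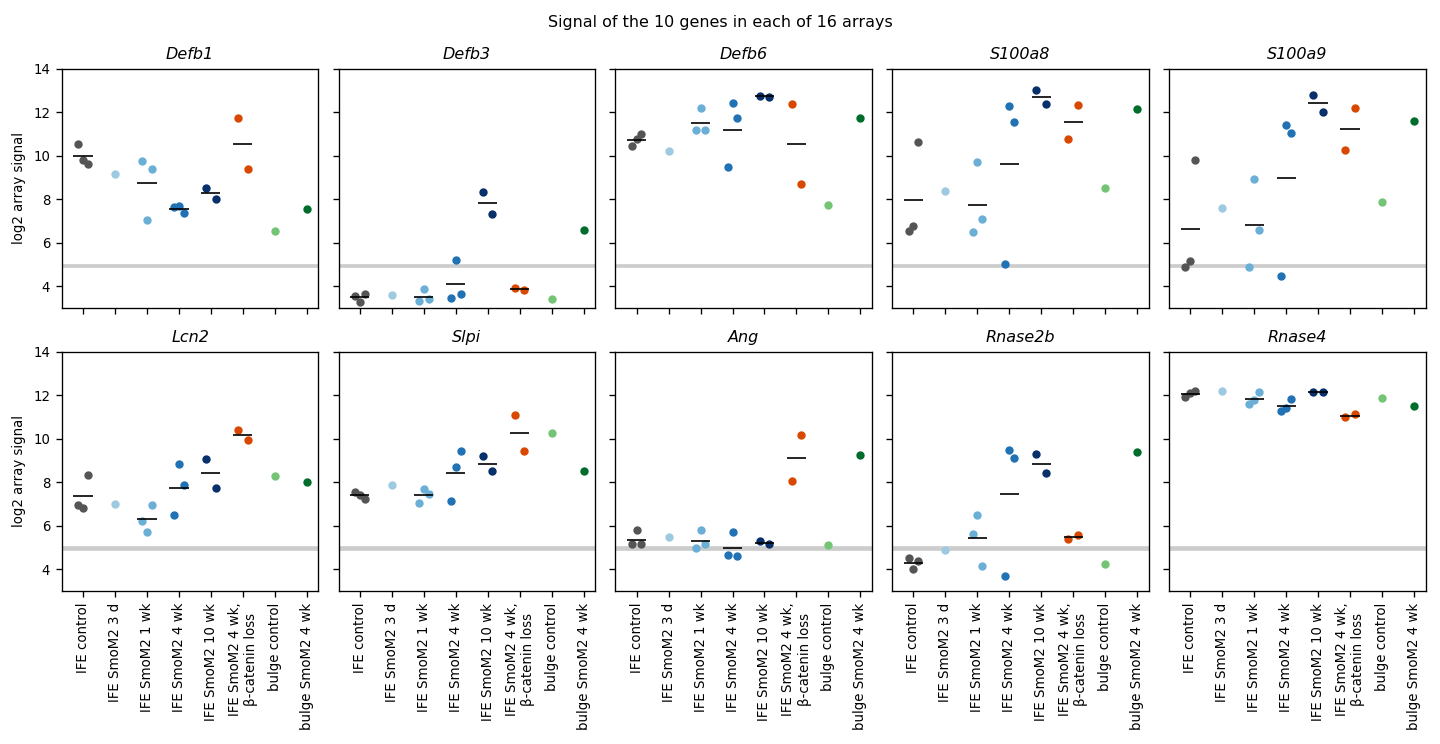
Log2 array signal of the 10 genes (1 panel each) in the 16 arrays, by group; points are arrays, lines are group means and the grey band is the range of the arrays' 40th percentiles (4.88 to 5.01). Defb3 leaves the band clearly in the 10-week arrays (8.35 and 7.34) and the SmoM2 bulge (6.58), and Ang in the β-catenin loss arrays (8.05 and 10.15) and the SmoM2 bulge (9.24).

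Defb1, the β-defensin that many epithelia make without induction, had its lowest IFE group mean 4 weeks after SmoM2 induction. The difference from control missed the threshold in the main fit, which had no replicate block. Its signal was 10.52, 9.80 and 9.62 in the controls, 9.15 at 3 days, and 9.78, 7.06 and 9.40 at 1 week. At 4 weeks it was 7.64, 7.70 and 7.37, and at 10 weeks 8.50 and 8.04. All 3 arrays at 4 weeks lay below all 3 controls. At 1 week replicates 2 and 3 lay below the controls and replicate 1 among them. Genes lower at 4 weeks without overlap made up 8.12% of all genes.

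Defb1 at 4 weeks was 7.57 ± 0.17 (SD, n = 3) against 9.98 ± 0.48 (SD, n = 3) in controls, a difference of -2.41 ± 0.68 (SE) on the log2 scale, with an adjusted p of 0.0833 in limma. Arrays with the same replicate number in their titles were paired, and with that number as a block the adjusted p was 0.0312. Without replicate 2 of the 1-week group it was 0.0164, and over all alternatives it lay between 0.00773 and 0.226. The other Defb1 probe set ran in parallel, with 9.22 to 9.70 in the controls and at most 7.36 at 4 weeks.

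With β-catenin loss Defb1 was 11.72 and 9.39, a mean of 10.55 ± 1.65 (SD, n = 2). Both arrays were above every 4-week array with SmoM2 alone, by 2.99 ± 0.76 (SE) on average, and the group overlapped the controls. In order of level the loss group stood first and the controls next, with overlapping values, and 4 weeks was the lowest of the IFE groups, with no overlap with the 10-week group above it. In the bulge Defb1 was 6.55 untreated and 7.55 with SmoM2.

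Defb3, an inducible β-defensin, was near the floor of the arrays in most IFE samples. It was 3.55, 3.30 and 3.64 in controls, 3.60 at 3 days, and 3.32, 3.86 and 3.41 at 1 week. At 4 weeks it was 3.49, 5.21 and 3.67, so a single array of 3 stood above the others. At 10 weeks it was 8.35 and 7.34. It exceeded the 40th percentile in 4 of 16 arrays: the 10-week arrays, 4-week replicate 2 and the SmoM2 bulge.

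The 10-week mean of Defb3 was 7.85 ± 0.72 (SD, n = 2) against 3.49 ± 0.18 (SD, n = 3), a difference of 4.35 ± 0.45 (SE) or 20.4-fold. In that comparison 0.700% of all genes passed the limma threshold, and Defb3 was chosen on it. Since the controls were below the 40th percentile, the fold describes a gene close to background on its low side. With β-catenin loss Defb3 was 3.91 and 3.82, below the 40th percentile. Below the top 2 groups, 10 weeks and the SmoM2 bulge, the groups lay between means of 3.42 and 4.12 and most neighbours in that order overlapped.

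Defb6, a β-defensin expressed in skin and muscle, was already high in control IFE, at 10.45, 10.76 and 11.01. It was 10.24 at 3 days, 11.18, 12.19 and 11.17 at 1 week, and 9.47, 12.41 and 11.73 at 4 weeks. The 1-week arrays all lay above the controls, narrowly, while the 4-week arrays spanned both sides of them. Genes higher at 1 week without overlap made up 4.63% of all genes. The difference was 0.46 ± 0.85 (SE) at 4 weeks, with a limma adjusted p of 0.888.

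At 10 weeks Defb6 was 12.76 and 12.70, the highest group, 1.99 ± 0.96 (SE) above control. With β-catenin loss its 2 arrays were far apart, at 12.39 and 8.70. The mean of upper follicle markers, 8 genes that include Krt79 and Krt17, was 10.04 and 8.46 in those same arrays. It was 8.88 in 4-week replicate 1, which had the lowest Defb6 of its group, and 9.82 and 10.12 in replicates 2 and 3. In the controls this mean was 8.58 to 8.97, at 10 weeks 9.84 to 10.12. Krt79 alone was 12.38 and 11.37 with loss. In the 4-week arrays it was 12.78, 12.12 and 13.38 in replicate order, lowest in replicate 2, where Defb6 was highest. The part of upper follicle cells in the Defb6 values was not tested.

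S100a8 and S100a9 varied more than any other gene of the set, over 8.03 and 8.32 log2 units across the 16 arrays. S100a8 was 6.53, 6.78 and 10.66 in controls, 8.38 at 3 days, and 6.48, 9.70 and 7.10 at 1 week. It was 5.01, 12.30 and 11.55 at 4 weeks, 13.04 and 12.40 at 10 weeks, and 10.79 and 12.35 with β-catenin loss. Control replicate 3 was high, 4-week replicate 1 had the lowest value of all arrays, and both arrays of the 10-week and the loss groups were above every control.

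S100a9 repeated the pattern array by array. It was 4.87, 5.18 and 9.82 in controls, 7.60 at 3 days, and 4.91, 8.93 and 6.61 at 1 week. It was 4.47, 11.43 and 11.06 at 4 weeks, 12.79 and 12.02 at 10 weeks, and 10.28 and 12.21 with β-catenin loss. The same control and the same 4-week array stood apart from their groups.

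At 4 weeks the difference from control was 1.63 ± 1.70 (SE) for S100a8, with a limma adjusted p of 0.77. For S100a9 it was 2.36 ± 1.81 (SE), with a limma adjusted p of 0.647. Without 4-week replicate 1 the differences were 3.94 (adjusted p = 0.128) and 4.62 (adjusted p = 0.132), and without control replicate 3 they were 2.96 and 3.96. Gli1 was 10.55 in 4-week replicate 1.

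At 10 weeks S100a8 was 4.73 ± 1.90 (SE) and S100a9 5.78 ± 2.02 (SE) above control on the log2 scale. Without control replicate 3 these were 6.06 and 7.38. With β-catenin loss the differences from control were 3.58 and 4.62, and from SmoM2 alone at 4 weeks 1.95 and 2.26. The last pair rested on 4-week replicate 1: without that array they were -0.35 and -0.0014. In the order of group levels 10 weeks stood first for both genes, with no overlap with the SmoM2 bulge next to it, and below that most neighbours overlapped.

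Neutrophils carry much S100a8 and S100a9, so their markers were read in the same arrays. The mean of 14 neutrophil genes was 5.29 to 5.50 in controls, 4.88 to 5.21 at 4 weeks, 5.12 to 5.15 at 10 weeks and 4.86 to 4.87 with β-catenin loss. Within the 4-week group it was 4.88 in replicate 1, where S100a8 was lowest, and 5.21 and 5.19 in the other arrays, and in the bulge pair it was 4.90 untreated and 5.30 with SmoM2. Mpo was above the 40th percentile in 3 of 16 arrays, Ltf in 2 and Itgam in 1. Other genes of the list were above it more often: Elane and Csf3r in 16, Ngp in 14, Camp in 13 and Cxcr2 in 9. Ptprc, the general leukocyte marker, was above it in 6 (3.78 to 6.13). Macrophage and Langerhans markers had a mean of 6.23 in 4-week replicate 1 and 6.87 and 7.26 in the other 4-week arrays. It was 6.97 in control replicate 3 against 5.92 and 6.32 in the other controls, 5.67 and 6.57 with loss in the order of their S100a8, and 6.29 to 6.32 at 10 weeks. Suprabasal keratinocyte markers had means of 8.81, 9.51 and 10.47 in the 4-week arrays in replicate order, the lowest again in replicate 1, against 10.51 to 10.68 in controls. The part of these cells in the S100 values was not tested.

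The genes whose signal was most like that of S100a8 over the 16 arrays, by Pearson's r, were S100a9 (0.992), B2m (0.928), H2-K1 (0.901), Tbx3 (0.897) and Cebpd (0.888). B2m and H2-K1 encode chains of class I antigen presentation and Cebpd encodes a C/EBP factor. B2m was 12.42 in control replicate 3 against 10.52 and 10.80 in the other controls, and 10.09 in 4-week replicate 1 against 12.58 and 11.64. These arrays share groups and preparation, and the correlation is a description.

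**Figure D2:**
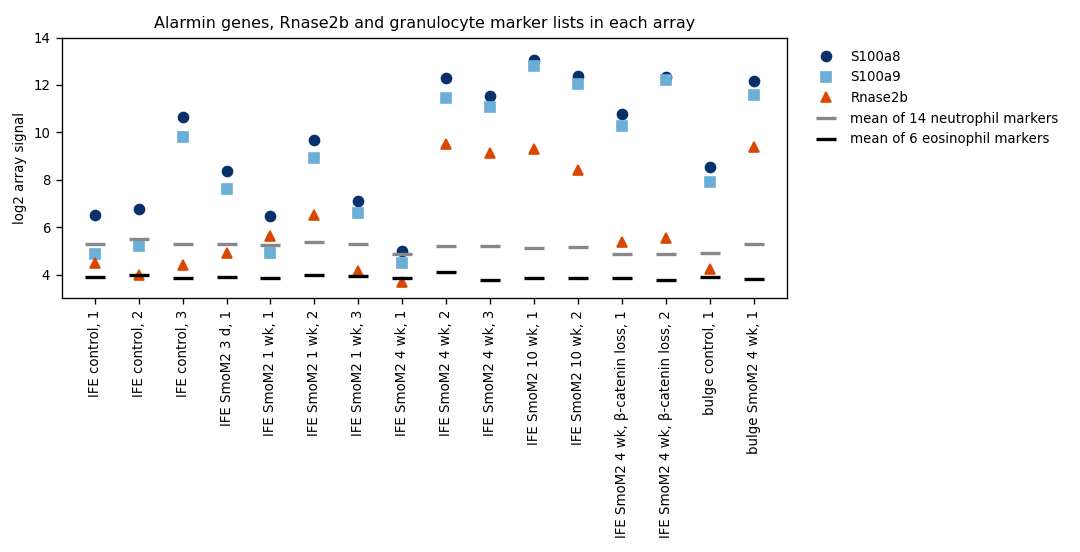
Log2 array signal of S100a8 (circles), S100a9 (squares) and Rnase2b (triangles) in each of the 16 arrays, with bars for the mean of 14 neutrophil markers and the mean of 6 eosinophil markers. S100a8 reads 5.01 in 4-week replicate 1 and 12.30 in 4-week replicate 2, while the neutrophil mean reads 4.88 and 5.21 there and the eosinophil mean stays between 3.75 and 4.12 in all arrays.

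Lcn2, which sequesters bacterial iron-binding siderophores, was highest with β-catenin loss. It was 6.95, 6.83 and 8.32 in controls, 6.99 at 3 days, 6.22, 5.71 and 6.94 at 1 week, and 6.48, 8.86 and 7.86 at 4 weeks. It was 9.07 and 7.75 at 10 weeks and 10.42 and 9.95 with β-catenin loss. Both loss arrays were above every other array of the series. The loss mean of 10.19 ± 0.33 (SD, n = 2) was 2.82 ± 0.67 (SE) above control and 2.45 ± 0.67 (SE) above SmoM2 alone.

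Slpi, an inhibitor of leukocyte serine proteases with antimicrobial activity, had a like order in the epidermis. It was 7.53, 7.43 and 7.22 in controls, 7.89 at 3 days, 7.03, 7.70 and 7.44 at 1 week, and 7.13, 8.71 and 9.42 at 4 weeks. It was 9.18 and 8.49 at 10 weeks and 11.10 and 9.45 with β-catenin loss. Both 10-week and both loss arrays lay above all controls, and both loss arrays lay above all 4-week arrays, narrowly in the closest pair. The loss mean was 2.88 ± 0.60 (SE) above control and 1.85 ± 0.60 (SE) above SmoM2 alone.

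At 4 weeks Lcn2 differed from control by 0.37 ± 0.60 (SE), with a limma adjusted p of 0.872, and Slpi by 1.03 ± 0.53 (SE), with a limma adjusted p of 0.418. For both genes 4-week replicate 1 was the lowest array of its group. Sebaceous gland markers also differed between the groups. The mean of 7 genes was 8.99 to 9.99 in controls and 7.33 to 9.19 at 4 weeks. It was 8.10 to 8.52 at 10 weeks and 9.98 to 10.41 with β-catenin loss. At 10 weeks it lay below all controls, while the means of Lcn2 (8.41) and Slpi (8.84) were above those of the controls (7.37 and 7.39). In 4-week replicate 1 it was 9.19, the highest of its group, and in replicate 2, which had the highest Lcn2, it was 7.33. The part of sebaceous gland cells in the Lcn2 and Slpi values was not tested.

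**Figure D3:**
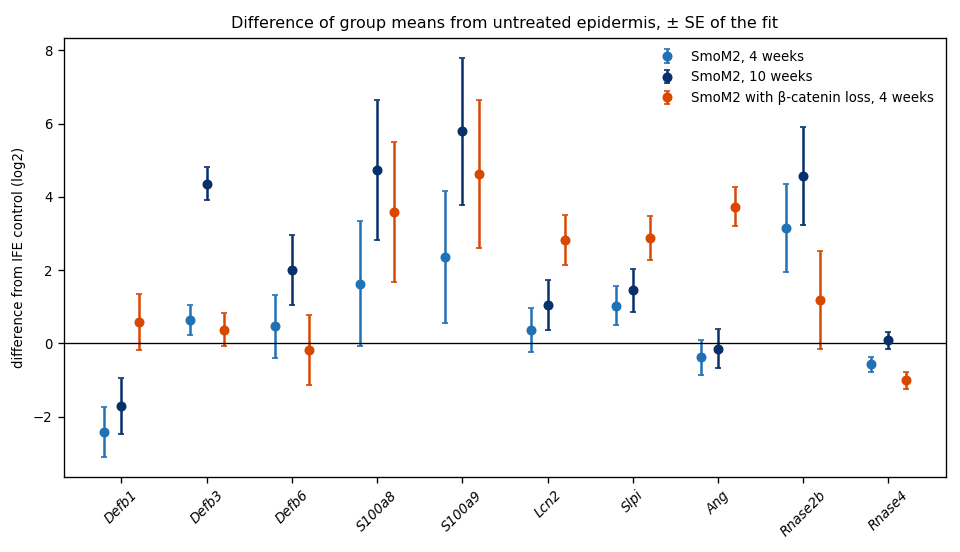
Difference of group means from IFE control (log2) for the 10 genes at 4 weeks, at 10 weeks and with β-catenin loss at 4 weeks; bars are ± 1 SE of the limma fit. Defb3 stands out at 10 weeks (4.35) and Ang with β-catenin loss (3.73), the values on which the set was chosen, and the bars of S100a8 and S100a9 are wide (SE 1.70 to 2.02).

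Ang, angiogenin, stayed near the 40th percentile of the arrays in IFE with β-catenin present. Its probe set with the highest mean read 5.14, 5.81 and 5.15 in controls, 5.47 at 3 days, 4.99, 5.80 and 5.16 at 1 week, 4.65, 5.71 and 4.61 at 4 weeks, and 5.29 and 5.14 at 10 weeks. With β-catenin loss it read 8.05 and 10.15. Both loss arrays were above all other IFE arrays. The difference was 3.73 ± 0.54 (SE), or 13.3-fold, from control and 4.11 ± 0.54 (SE), or 17.3-fold, from SmoM2 alone, in comparisons in which 0.371% and 2.23% of all genes passed the limma threshold and on which Ang was chosen.

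The 3 Ang probe sets gave one direction and different sizes. The _x_at probe set read 5.51, 4.55 and 5.51 in controls and 6.92 and 8.69 with loss. The probe set with neither suffix read 5.24, 5.05 and 5.99 in controls, 6.05 and 5.76 at 10 weeks, and 5.90 and 6.57 with loss, so there a loss array lay within the range of the controls. Their differences from control were 2.61 and 0.81. The first probe set is an _s_at set. The suffixes _s_at and _x_at mark probes that can bind related transcripts, and Ang has close paralogs, so which Ang family member gave the signal is uncertain.

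Rnase4, which shares its first start with Ang, was high everywhere and went the other way. It was 11.91, 12.10 and 12.21 in controls, 12.17 at 3 days, 11.58, 11.79 and 12.12 at 1 week, and 11.29, 11.39 and 11.83 at 4 weeks. It was 12.16 and 12.14 at 10 weeks and 10.99 and 11.13 with β-catenin loss. The loss arrays were the lowest of the series, all 4-week arrays were below all controls, and the whole range over 16 arrays was 1.22.

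Rnase4 differed from control by -0.57 ± 0.20 (SE) at 4 weeks, with a limma adjusted p of 0.174. With the replicate number as a block the adjusted p was 0.041. It was 0.65 ± 0.22 (SE) higher at 10 weeks than at 4 weeks, with a limma adjusted p of 0.794. With β-catenin loss the difference from control was -1.01 ± 0.22 (SE). The plot of the Ang probe sets beside Rnase4 shows both patterns.

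**Figure D4:**
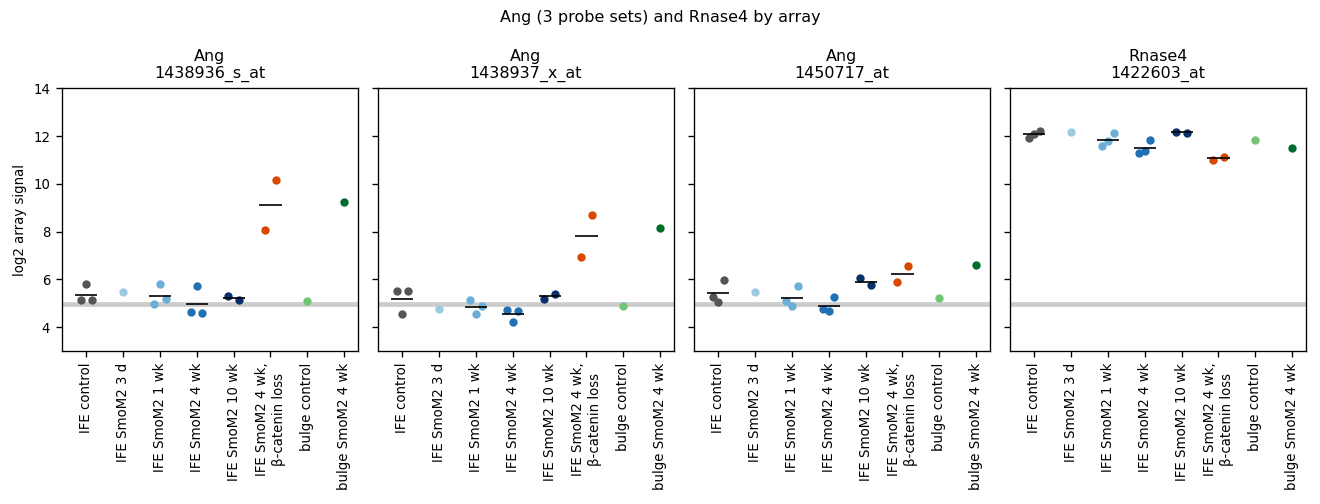
Log2 array signal of the 3 Ang probe sets and the Rnase4 probe set by group; points are arrays, lines are group means, and the grey band is the range of the arrays' 40th percentiles (4.88 to 5.01). The loss arrays and the SmoM2 bulge array are high in the first 2 Ang panels, less so in the third, and the loss arrays are the lowest for Rnase4 (10.99 and 11.13).

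Rnase2b, a mouse eosinophil-associated ribonuclease, was high in some SmoM2 arrays and low in all controls. It was 4.50, 3.99 and 4.39 in controls, 4.89 at 3 days, 5.64, 6.51 and 4.13 at 1 week, and 3.70, 9.50 and 9.13 at 4 weeks. It was 9.28 and 8.43 at 10 weeks and 5.39 and 5.55 with β-catenin loss. All controls were below the 40th percentile, as was 4-week replicate 1, the array that was also lowest for S100a8. Rnase2b exceeded the 40th percentile in 9 of 16 arrays.

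At 4 weeks Rnase2b differed from control by 3.15 ± 1.19 (SE) on the log2 scale, with a limma adjusted p of 0.216. Without 4-week replicate 1 the difference was 5.02 with an adjusted p of 0.0119, and over all alternatives the adjusted p lay between 0.0119 and 0.486. At 10 weeks the difference from control was 4.56 ± 1.34 (SE). Compared with SmoM2 alone at 4 weeks the loss group differed by -1.97 ± 1.34 (SE), with loss values inside the wide 4-week range, and without 4-week replicate 1 the difference was -3.85. The eosinophil markers Epx and Prg2 were above the 40th percentile in 0 of 16 arrays, and the mean of 6 eosinophil genes lay between 3.75 and 4.12 throughout.

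The bulge pair had 1 array a group and no test. With SmoM2, 7 of the 10 genes were higher by 2-fold or more and 1 was lower, against 4.35% and 2.59% of all genes. Rnase2b went from 4.23 to 9.40, Ang from 5.11 to 9.24, Defb6 from 7.73 to 11.72, S100a9 from 7.90 to 11.59, S100a8 from 8.53 to 12.17, and Defb3 from 3.42 to 6.58. Defb1 went from 6.55 to 7.55, a difference of 1.00 that only just reached the 2-fold cut. Its other probe set differed by 0.994, just short of that cut. Slpi went the other way, from 10.26 to 8.54, Lcn2 was 8.30 and 8.01, and Rnase4 11.85 and 11.50.

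Ang in the SmoM2 bulge, which kept β-catenin by its label, was as high as in the loss epidermis (8.05 and 10.15), and the other Ang probe sets differed between the bulge arrays by 3.26 and 1.39. Defb3 in the SmoM2 bulge at 4 weeks was above all 4-week IFE arrays and below both 10-week arrays. Marker levels of the pair differed too: suprabasal markers had a mean of 9.23 untreated and 10.63 with SmoM2, upper follicle markers 8.06 and 9.84, macrophage and Langerhans markers 6.39 and 7.30, dermal fibroblast markers 6.10 and 7.20, and neutrophil markers 4.90 and 5.30. Cd34, the bulge marker, was 9.72 untreated and 6.83 with SmoM2. Mean Y-linked signal was 6.35 untreated and 3.48 with SmoM2. The part of these cell types and of Y-linked signal in the differences of the pair was not tested.

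**Figure D5:**
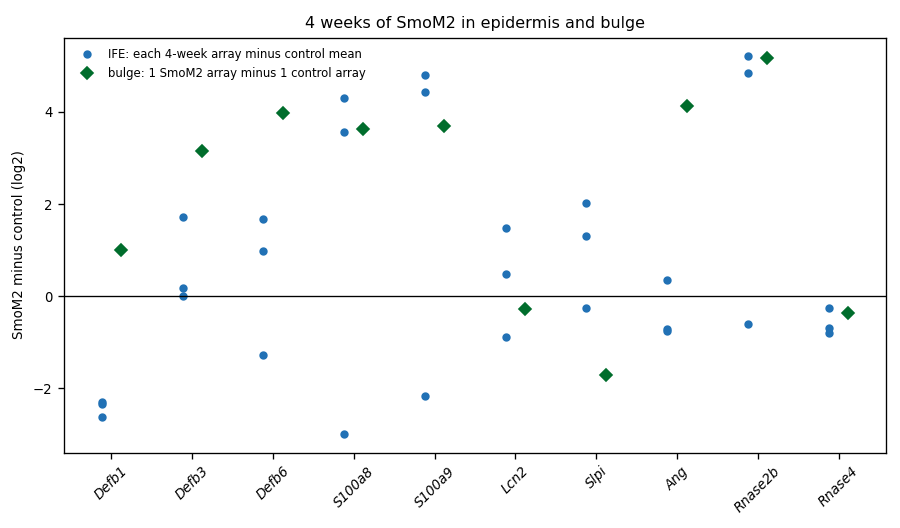
SmoM2 minus control (log2) after 4 weeks for the 10 genes; circles are the 3 IFE arrays, each minus the mean of the 3 IFE controls, and diamonds the single bulge SmoM2 array minus the single bulge control. The S100 and Rnase2b diamonds lie near 2 of the 3 circles (bulge 3.64, 3.70 and 5.17), Ang lies far above its circles (4.14), and Defb1 is on the other side of 0 (1.00 against a mean of -2.41).

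Other genes of the same kinds were counted at 4 weeks against the 3.24% of all genes that passed there. Of 24 further antimicrobial genes 13 were tested, and at 4 weeks 0 passed in either direction, with a median difference of -0.08 beside -0.05 over all genes. Their lowest adjusted p values in limma were those of Defb2, a β-defensin, at -1.64 ± 0.49 (SE, adjusted p = 0.109) and Camp, the cathelicidin, at -0.38 ± 0.20 (SE, adjusted p = 0.409). The 15 tested of 21 other S100 and alarmin genes also gave 0, with a median of -0.22. Among them were S100a14, an epidermal S100 protein, at -0.85 ± 0.26 (SE, adjusted p = 0.114) and Il33, a nuclear alarmin cytokine, at -3.15 ± 1.01 (SE, adjusted p = 0.133).

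Of 17 other ribonuclease genes, which include the ribonuclease inhibitor Rnh1, 3 were tested and 0 passed. Rnh1 differed by -0.41 ± 0.18 (SE) at 4 weeks, with a limma adjusted p of 0.304, and Rnase1 by 0.77 ± 0.44 (SE) at 10 weeks against 4 weeks, with a limma adjusted p of 0.825. Of 31 genes of the inducing pathways 26 were tested and 1 rose at 4 weeks, where 2.44% of all genes passed higher, so the count is near the background. It was Il17rd, a receptor-like protein of the interleukin-17 receptor family that also restrains FGF signalling, at 2.27 ± 0.46 (SE) with a limma adjusted p of 0.0265. The pathway's median was 0.08, and 0 of its genes passed lower. The median of the 10 genes themselves at 4 weeks was 0.55. It counts Defb3 and Ang, chosen on arrays of that comparison, so it is not set against the medians of the other lists.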

How the data were processed

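Sorted mouse cells were hybridised to Affymetrix arrays after 3′ amplification, per the labels' protocols. The authors deposited 1 table of log2 signals for 45101 probe sets in 16 arrays (medians 5.38 to 5.53). R 2.14.0 is named by the submitters' processing notes. How background was corrected and arrays were normalized is not given in the sources used here. Groups came from the sample labels. Each gene took the values of whichever of its probe sets had the highest mean. It was tested if 2 or more arrays had it above their own 40th percentile. Differences were fitted with limma 3.58.1 in R 4.3.3 on the 14 IFE arrays (total degrees of freedom 11.6), adjusted by Benjamini-Hochberg over 14286 genes, threshold 0.05, with no further normalization. The method was tested on simulated data with independent arrays, which lacked the pairing by replicate number described below. Precision is limited by the number of arrays.

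The members and lists were chosen with earlier results of these data known. Named were all members, up to 4 genes of each other list past the threshold in a comparison or, with none, the 2 with the lowest adjusted p, and the 5 genes most correlated with Defb3, Ang and S100a8. Gli1, Krt and leukocyte markers were read as checks. Deviations of the control, 1-week and 4-week arrays with the same replicate number in the titles correlated in all 9 pairs (0.34 to 0.70), so these numbers pair those samples. The main fit had no block for this pairing. The 10-week and loss arrays correlated little with those arrays of the same title number (-0.18 to 0.12), yet the title-number block includes them. Alternatives covered probe sets, normalization, filter, arrays in the fit, array weights, replicate block, Y-linked signal and leaving out each replicate. Promoter windows are from RefSeq, and Defb1 was not matched there.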

Additional observations from a re-analysis of the deposited data

Results flagged for a closer look

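Defb1, the constitutive β-defensin, had SmoM2 minus control differences of opposite sign in the epidermis and the bulge. At 4 weeks the mean SmoM2 minus control difference was -2.41 in the IFE, where all 3 SmoM2 arrays lay below all 3 controls (limma adjusted p = 0.0833), and 1.00 in the bulge, where each group had 1 array, no test was possible and the source label of the untreated array names SmoM2-positive cells. The difference between the populations was not tested.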

How the results depend on the processing

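The count of eligible genes of the set past the threshold was 0 under every alternative at 3 days, 1 week, 4 weeks against 1 week and 10 weeks against 4 weeks. At 4 weeks against control it was 1 with only the arrays of the groups compared and 1 with a replicate block by experiment number (Defb1 in each, adjusted p 0.00773 and 0.0324), and 2 with the replicate block by title number (Defb1 and Rnase4). Leaving out each replicate gave 0 to 1: Defb1 passed without 1-week replicate 2 and Rnase2b without 4-week replicate 1. The block changed no other call on these genes. The cause of these shifts was not tested. Over all genes the number past the threshold at 4 weeks went from 463 to between 13 and 873, at 10 weeks from 100 to between 0 and 1545 (the most with array weights), with β-catenin loss against control from 53 to between 1 and 169, and against SmoM2 alone from 318 to between 2 and 1347. With 1 to 3 arrays a group, differences well above the SE given can also miss the threshold, as Defb1 did at 4 weeks in the main fit (-2.41 ± 0.68, SE). Defb3, Ang and Rnase2b lie near background on their low side.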

Other observations

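The 5 genes most like Ang over the 16 arrays, by Pearson's r and with no test, were Gm26782 (0.916), Spata5l1 (0.792), Rpgrip1 (0.790), Ppp1r3e (0.781) and Zfp280c (0.770). Of these 5, 3 (Gm26782, Rpgrip1 and Ppp1r3e) lie on chromosome 14, as Ang does, against 472 of the 14262 tested genes with a known position (3.31%). They were picked for likeness to Ang, whose pattern the loss arrays set, so their position is a description. Gm26782 was 5.12 and 5.35 with β-catenin loss and 4.83 in the SmoM2 bulge, and 3.76 to 4.14 in all other arrays, below the 40th percentile. Rpgrip1, which encodes a ciliary protein of photoreceptors, was 8.01 and 9.20 with loss and 8.19 in the SmoM2 bulge, and Ppp1r3e, a glycogen-targeting phosphatase subunit, was 7.61, 7.41 and 6.50. The labels give a mixed strain background for all mice, and the part of strain in these values was not tested.

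The genes most like Defb3 were Cyp2d22 (0.873), Crip3 (0.823), Sprr2k (0.821), Col4a3 (0.809) and Hs3st4 (0.806). Cyp2d22, a cytochrome P450, was 6.40 in each 10-week array, 4.86, 5.17 and 5.18 in controls and 5.63 in the SmoM2 bulge. Within the set Rnase2b was the gene most like Defb3 (0.759), and Ang and Rnase4 had an r of -0.600. Defb3 exceeded the 40th percentile in 4 of 16 arrays, the 10-week arrays among them. All these r values include the arrays on which Defb3 and Ang were chosen, so they are descriptions with no test.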
